A study of Mus musculus with 108 samples.

Results

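Expression of 9 genes of the MHC class I pathway and the interferon response was examined in single acinar cells of the mouse pancreas, which make and secrete the digestive enzymes. The genes were chosen by symbol: B2m, H2-K1, H2-D1, Tap1, Psmb8, Psmb9, Ifi27, Ifit1 and Irf1. All 9 were found among the 45195 gene entries of the expression table. The study asked how far acinar cells of the adult pancreas differ from one another. Each of its samples was 1 cell, taken from untreated male C57BL/6 mice aged 12 weeks, which formed 1 group with no genetic modification named. Acini were freed with collagenase, separated from islets on a strainer and broken up with Accutase, and the RNA of each cell was turned into cDNA with a variant of SMART-seq2, which carries no molecular identifiers and does not keep the strand of the transcript. No animal, day or plate was named for a cell, so the cells counted as 1 sample. SDs and ranges below describe the spread between cells and carry no test.

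Nearly all nucleated cells show peptides of their own proteins on MHC class I molecules, which consist of a heavy chain and the small invariant chain β2-microglobulin. The proteasome cuts the peptides, the transporter TAP carries them into the endoplasmic reticulum, and a set of chaperones loads them onto the heavy chain. Interferons, acting through their receptors and STAT and IRF transcription factors, raise most of these genes and replace the standard catalytic subunits of the proteasome with inducible ones, which form the immunoproteasome. In healthy pancreas the class I molecules of exocrine cells are known to be sparse compared with those of immune cells.

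The sequences through which interferon and inflammatory signals are known to act on such genes lie close to their starts, and short stretches of 5 of the promoters are shown because they carry the letters searched for. They are from RefSeq on GRCm38.p6, read 5′ to 3′ on the gene's strand, and 8 of the 9 genes were found in that table. Capitals mark the matches. The B2m stretch is chr2:122147533-122147572 (plus strand), that of H2-K1 chr17:34000415-34000473 (minus strand), that of H2-D1 chr17:35262908-35262966 (plus strand), that of Ifit1 chr19:34640770-34640828 (plus strand) and that of Irf1 chr11:53769909-53769947 (plus strand).
B2m: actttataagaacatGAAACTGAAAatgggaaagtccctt
H2-K1: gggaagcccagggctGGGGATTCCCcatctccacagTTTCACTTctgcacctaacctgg
H2-D1: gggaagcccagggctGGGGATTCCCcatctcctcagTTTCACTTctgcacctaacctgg
Ifit1: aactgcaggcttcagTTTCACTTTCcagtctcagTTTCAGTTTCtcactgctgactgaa
Irf1: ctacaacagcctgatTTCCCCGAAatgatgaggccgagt
Motifs were searched on both strands in windows of 250 bases before to 50 bases after each start, and were chosen after the sequences were seen. For each of the 8 genes only the first window listed was searched. The count over all windows took every listed window, except those of a chromosome that holds none of these genes. The IRF-type repeat GAAANNGAAA occurred in the B2m and Ifit1 windows and in 3.44% of 32851 windows. The shorter AANNGAAA, which the repeat contains, occurred in 4 of the 8 windows (also H2-K1 and H2-D1) and in 23.9% of all windows. The STAT-type letters TTCNNNGAA occurred in the Irf1 and Psmb8 windows and in 8.30% of all windows. The kappa B-like letters GGGNNTTCCC occurred in the H2-K1 and H2-D1 windows and in 1.75% of all windows. The H2-K1 and H2-D1 stretches shared 58 of 59 bases. A match of letters describes the sequence and shows no binding.

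Values were TPM, the share of a transcript among all transcripts of a cell after correction for its length. Levels of different genes can therefore be set side by side within these cells. The digestive enzymes summed to 837209 TPM in cell 40 and 732569 to 916916 TPM in the other cells (median 886172). All other genes shared the remainder, and words such as low or scarce refer to this scale. TPM keep no read depth, and the number of reads behind each value is unknown. A gene counted as detected in a cell at or above 1 TPM. The cells had 2624 to 6946 genes detected (median 4156), and 7227 genes were detected in at least 10% of cells (11 cells) and entered the comparisons across genes. All 10 acinar markers were detected in at least 10% of cells and 9 of them in every cell, with a summed level of 238016 to 375003 TPM. No lymphocyte marker of 12 was detected in any cell, and endothelial markers were detected in 7 cells, with 10 of 11 in cell 40 and 1 in each of the others. For the 21 cells numbered 92 and above, the TPM of a cell added up to between 788380 and 990520 instead of 1000000. They are called short-total cells, and the other 87, whose numbers end at 91, full-total cells.

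The classical class I molecule was represented by all of its chains. H2-K1 and H2-D1, the heavy chains K and D, were detected in every cell, and B2m, which encodes β2-microglobulin, in all but 7. H2-K1 (chr17:33996017-34000347, minus strand) ranged from 2.98 TPM in cell 98 through a median of 10.7 to 35.9 TPM in cell 40, and averaged 11.7 ± 5.56 TPM (SD over all cells). H2-D1 (chr17:35262730-35267499, plus strand) ranged from 2.91 TPM, also in cell 98, through a median of 8.47 to 28.4 TPM in cell 40, and averaged 8.83 ± 3.61 TPM. No cell was without either heavy chain. B2m (chr2:122147686-122153083, plus strand) ranged from 0 TPM in 2 short-total cells through a median of 6.50 to 51.95 TPM in cell 40, and averaged 7.73 ± 6.65 TPM. It reached 1 TPM in 93.5% of cells (exact Clopper-Pearson 95% interval 87.1% to 97.4%). Such intervals cover counting error only. The 7 cells under 1 TPM of B2m still listed 3.38 to 14.7 TPM of H2-K1 and 6.17 to 16.1 TPM of H2-D1. Both heavy chains were above 1 TPM in each of them. At the bound of detection, B2m stood at 0.79 TPM in cell 32, the highest of the 7.

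**Figure D1:**
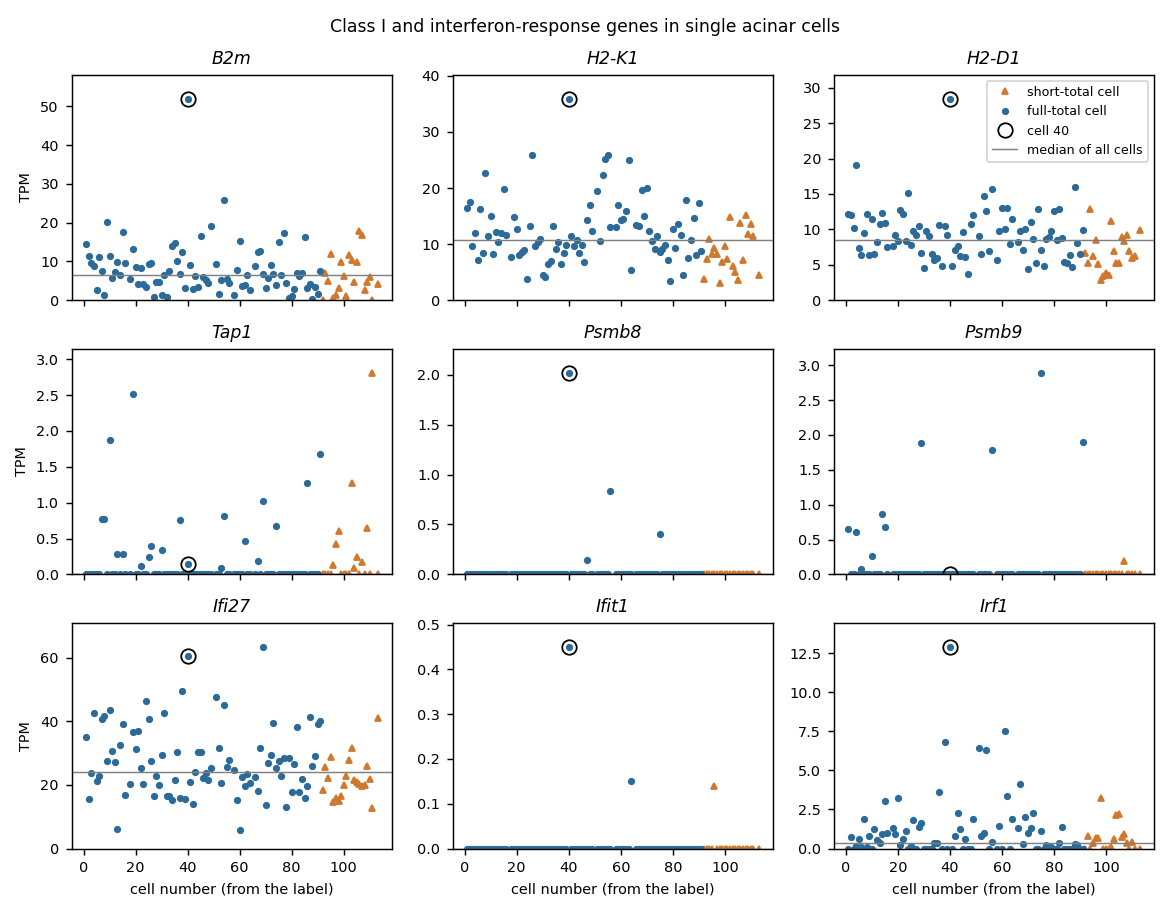
TPM of each of the 9 genes (1 panel each, linear axes of different heights) against the number of the cell; triangles are the 21 short-total cells, filled circles the 87 full-total cells, the open circle marks cell 40 and the grey line is the median of all cells. H2-K1, H2-D1 and Ifi27 lie above 2.9 TPM in every cell, Tap1, Psmb8, Psmb9 and Ifit1 are at or near 0 in most, and cell 40 holds the highest value of 6 genes.

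Within a cell the chains were not present in a fixed ratio. H2-K1 exceeded H2-D1 in 77 cells and the reverse held in 31, with a median ratio of 1.31 and a range of 0.249 in cell 24 to 4.60 in cell 70. B2m stood at a median of 0.336 times the sum of the heavy chains, from 0 to 1.13 in cell 9, and exceeded that sum in 3 cells. The interquartile ranges of H2-K1 (8.27 to 14.3 TPM), H2-D1 (6.35 to 10.7 TPM) and B2m (3.69 to 9.88 TPM) overlapped between neighbours. By that measure, which does not pair values by cell, the levels did not differ beyond their spread. Within cells, H2-K1 exceeded B2m in 86 and was below it in 22, and H2-D1 exceeded B2m in 66 and was below it in 42. Each 100-base window of the H2-K1 and B2m reference transcripts was found in no other gene, while 4.64% of those of H2-D1 also occurred elsewhere, mainly in H2-Q1, so a part of the H2-D1 reads could have been divided between these genes.

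The other class I heavy chains had lower averages than the classical chains. Of 17 such genes, 3 were detected in at least 10% of cells, 8 in fewer and 6 in none. For comparison, 7227 of all 45195 genes were detected in at least 10% of cells and 12992 in some cell. The share of the 17 detected in at least 10% of cells was thus close to that of all genes. The share detected in some cell, 11 of the 17, was higher than that of all genes. H2-T22 was the most abundant, at 2.44 ± 2.01 TPM and detected in 89 cells, followed by H2-Q2 at 1.63 ± 1.64 TPM in 63 cells. H2-T23, which encodes the Qa-1 heavy chain, was detected in 15 cells and averaged 0.504 TPM, with its highest value of 6.31 TPM in cell 54. Each of these averages was below that of both classical chains.

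MHC class II, which professional antigen-presenting cells use, was nearly absent from the table. Of its 7 genes, 4 were detected in no cell and the other 3 in 1 cell each, while 12992 of all 45195 genes were detected in some cell. Cd74, the class II invariant chain, was detected only in cell 40, at 4.88 TPM.

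Of the peptide transporter, Tap1 (chr17:34187553-34197225, plus strand) reached 1 TPM in 7 cells (6.48%, interval 2.65% to 12.9%) and was listed at 0 in 79. Those 7, with 1.02 to 2.81 TPM, were cells 10, 19, 69, 86 and 91 and 2 short-total cells. The median over all cells was 0. Tap2, the other subunit of the transporter, was detected in 25 cells and averaged 0.620 ± 0.735 TPM. Tapbp, tapasin, which bridges the transporter and the heavy chain, was detected in 59 cells at 1.36 ± 1.196 TPM. The general chaperones of the loading complex, which also fold secretory proteins, were far higher. Calr averaged 25.8 ± 11.2 TPM, Pdia3 16.6 ± 8.45 TPM and Canx 8.74 ± 2.70 TPM, each in every cell. Nlrc5, the activator of class I transcription, was detected in no cell, for which 3 cells, or 2.78%, is the limit used for a count of 0 (the exact interval used for the other shares ends at 3.36%). In all, 10 of 15 genes of peptide loading were detected in at least 10% of cells, against 7227 of all 45195 genes. By the criterion given below, 0 of the 10 were called variable, against 12.0% of all genes tested.

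The interferon-inducible proteasome subunits split. Psmb8 (chr17:34197721-34201454, plus strand) was detected in 1 cell (0.926%, interval 0.0234% to 5.05%), at 2.02 TPM in cell 40, and the next highest value was 0.84 TPM in cell 56. Psmb9 (chr17:34181987-34187764, minus strand) was detected in 4 cells (3.70%, interval 1.02% to 9.21%), namely cells 29, 56, 75 and 91, with 1.79 to 2.89 TPM. Of their standard counterparts, every cell had Psmb5 detected, at 19.5 ± 8.13 TPM, and Psmb6 was detected in all but 1, a short-total cell with 0.67 TPM, at 19.3 ± 7.37 TPM. Psmb8 exceeded Psmb5 in 0 cells, and Psmb9 exceeded Psmb6 in 0 cells.

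Psmb10, the third inducible catalytic subunit, had the opposite pattern. Every cell detected it, with an average of 23.2 ± 6.43 TPM, and it exceeded its standard counterpart Psmb7, at 8.77 ± 3.83 TPM, in all but 2 cells. Its squared coefficient of variation was 0.561 times that of genes of like level, so it was also among the steadier genes. Psmb10 (chr8:105935735-105938444, minus strand) lies 1872 bases from Ctrl on the same strand, a chymotrypsin-like protease gene that averaged 44310 TPM. The exons of both did not overlap, and the Spearman correlation of Psmb10 with Ctrl over cells was 0.0809. Whether reads of that neighbour enter the Psmb10 value was not tested. Of the proteasome activator, Psme2, the interferon-inducible β subunit, was detected in 86 cells at 3.34 ± 3.65 TPM and was called variable at 2.94 times the trend, and its partner Psme1 was detected in 70 cells at 1.78 ± 1.58 TPM.

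**Figure D2:**
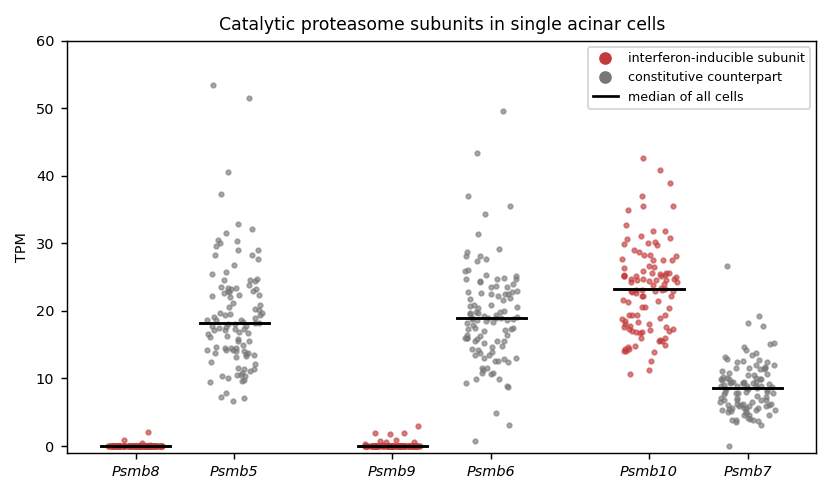
TPM of the 3 interferon-inducible catalytic subunits of the proteasome (red), each beside its standard counterpart (grey), with 1 point per cell and a line at the median of all cells. Psmb8 and Psmb9 lie near 0 beside Psmb5 and Psmb6, whereas Psmb10 lies above Psmb7 in all but 2 cells.

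Tap1 and Psmb9 stand head to head and share 212 exonic bases on opposite strands, and 498 exonic bases of Psmb8 overlap the antisense gene Gm20496. Without strand, reads of those bases cannot be told apart. Only cell 91 held both Tap1 and Psmb9 at or above 1 TPM.

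Among the interferon-response genes proper, Ifi27 and Ifit1 lay at opposite ends. Ifi27 (chr12:103434211-103440239, plus strand), an interferon-inducible membrane protein of mitochondria, had the highest level of the 9 genes. It ranged from 5.81 TPM in cell 60 through a median of 23.9 to 63.4 TPM in cell 69, averaged 26.5 ± 10.5 TPM, and was detected in every cell. Its interquartile range, 19.9 to 30.9 TPM, lay above that of H2-K1, and it exceeded H2-K1 in 99 cells and H2-D1 in all but 2. Ifit1 (chr19:34640871-34650009, plus strand), an antiviral protein that binds foreign RNA, was detected in 0 cells, with the same limits of 2.78% and 3.36%. It was above 0 in 3 cells, at most 0.45 TPM in cell 40.

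Of the other interferon-stimulated genes, more were detected in no cell, like Ifit1, than in every cell, like Ifi27. Of 71 such genes, 32 were detected in no cell, 25 in 1 to 10 cells and 14 in at least 10% of cells. Among all 45195 genes, 7227 were detected in at least 10% of cells and 12992 in some cell, against 14 and 39 of the 71. The share of the 71 was thus slightly above that of all genes by the first measure, and higher by the second. Ifitm3 and Ifitm2, which block virus entry at membranes, were detected in every cell at 24.0 ± 13.7 TPM and 12.3 ± 5.77 TPM. Bst2, the virion tether tetherin, was detected in 98 cells at 4.27 ± 2.97 TPM, and Isg20, an exonuclease, in 92 cells at 3.46 ± 2.39 TPM. Isg15, the ubiquitin-like modifier, was detected in 4 cells, with a maximum of 6.43 TPM in cell 40. Of the 14 genes, 3 (Ifitm3, Irgm1 and Lgals9) were called variable, against 12.0% of all genes tested, the last at 3.97 times the trend with a maximum of 15.5 TPM in cell 54.

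No interferon ligand was detected, while receptors were found for each type in part. Of the 10 interferon genes, 9 were listed at 0 in every cell and the other reached at most 0.48 TPM. The type I receptor chain Ifnar2 was detected in 86 cells at 2.52 ± 1.79 TPM and its partner Ifnar1 in 18 cells at 0.397 ± 0.533 TPM. The type II receptor chain Ifngr2 was detected in 52 cells at 1.23 ± 1.16 TPM and Ifngr1 in 17 cells at 0.430 ± 0.667 TPM. Il10rb, shared by the type III receptor, was detected in 92 cells, and Ifnlr1, its specific chain, in 0. Among signalling genes, Jak1 was detected in 98 cells, Irf3 in 99 and Stat3 in 76. Over all 8 lists of class I, class II, proteasome and interferon genes, 48 of 149 were detected in at least 10% of cells, against 7227 of all 45195 genes.

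Irf1 (chr11:53770014-53778374, plus strand), a transcription factor that interferon gamma and other signals induce, was low and patchy. It was detected in 32 cells (29.6%, interval 21.2% to 39.2%), above 0 in 69 and listed at 0 in 39. Its median was 0.35 TPM and its mean 1.05 ± 1.87 TPM. The highest values were 12.9 TPM in cell 40, 7.50 TPM in cell 61, 6.78 TPM in cell 38, 6.41 TPM in cell 51 and 6.29 TPM in cell 54. Its interquartile range, 0 to 1.27 TPM, lay below that of B2m. By median, the order of the 5 genes detected in at least 10% of cells was therefore Ifi27, H2-K1, H2-D1, B2m and Irf1. Of these steps, those from Ifi27 to H2-K1 and from B2m to Irf1 had interquartile ranges that did not overlap. The other 4 genes had a median of 0.

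The spread of these genes between cells was set against that of genes of like mean level. A gene was called variable where its squared coefficient of variation was at or above 2 times a smooth trend over the 7227 genes. B2m, at 3.15 times the trend, and Irf1, at 3.42 times, were called, which was 2 of the 5 genes, against 12.0% of all genes tested. H2-K1 stood at 1.21 times, Ifi27 at 1.203 times and H2-D1 at 0.770 times the trend. By this measure the invariant chain was more uneven between cells than both heavy chains. The trend takes account of mean level but not of transcript length, which was 860 bases for B2m, 1619 for H2-K1 and 2102 for H2-D1. The part of sampling noise in this difference was not tested. Within the short-total cells alone Irf1 stood at 1.45 times the trend and was not called, and B2m without cells 40 and 96, which carry endothelial or fibroblast markers, stood at 2.04 times.

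**Figure D3:**
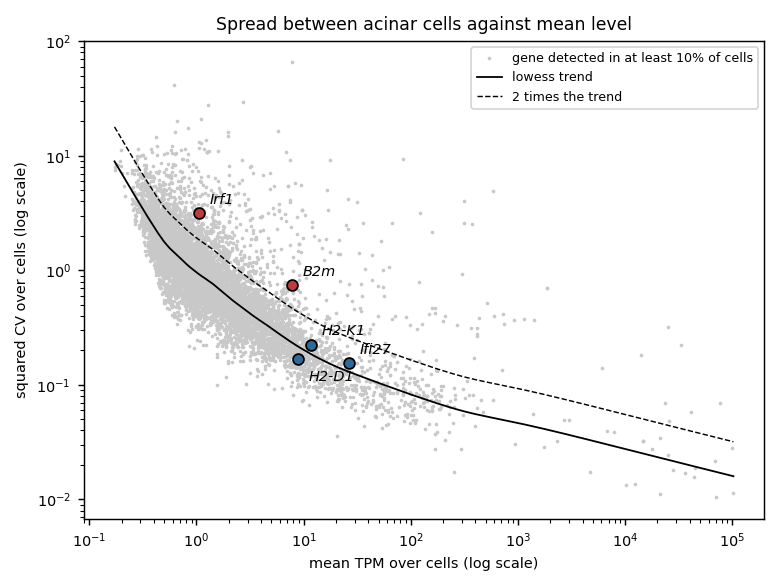
Squared coefficient of variation over cells against mean TPM (both axes on log scales) for the 7227 genes detected in at least 10% of cells (grey points), with the trend (solid line) and 2 times the trend (dashed line). B2m and Irf1 (red) lie above the dashed line, at 3.15 and 3.42 times the trend, and H2-K1, H2-D1 and Ifi27 (blue) lie below it.

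The 5 genes varied together weakly. Over all cells the Spearman correlation was positive for all 10 pairs, with a median of 0.201, against 0.0560 for all pairs of genes tested. The points share libraries and composition, and these correlations are descriptions. The H2-K1 and H2-D1 pair had the highest value over all cells, 0.340. It was the only 1 of the 10 at or above 0.3 there, a level reached by 1.36% of all gene pairs. Its Pearson correlation was 0.363, and 0.257 once the 2 most extreme cells were left out. H2-D1 with Ifi27 followed at 0.289, B2m with H2-K1 at 0.275 and B2m with Irf1 at 0.262. B2m with H2-D1 reached only 0.113, and Ifi27 with Irf1 was lowest at 0.0970. Over the short-total cells the pairs of Irf1 with H2-K1, H2-D1 and Ifi27 were negative, at -0.291, -0.182 and -0.154, and over the full-total cells they were 0.219, 0.238 and 0.133. H2-D1 with Ifi27 stood at -0.0417 over cells 49 to 91 and 0.499 over cells 1 to 48, and H2-K1 with Ifi27 at -0.0162 and 0.157. The H2-K1 and H2-D1 pair stood at 0.163 and 0.274 over these sets, and at 0.435 over the short-total cells. Over the full-total cells it stood at 0.233, below B2m with H2-K1 at 0.305, H2-D1 with Irf1 and H2-D1 with Ifi27 at 0.236.

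The number of genes detected moved with these genes. Its Spearman correlation was 0.496 with H2-D1, 0.421 with Irf1, 0.325 with H2-K1, 0.271 with B2m and 0.249 with Ifi27, against a median of 0.211 over all genes tested. With each gene taken as a residual on that number, the median over the 10 pairs was 0.0954, against 0.00445 over all pairs.

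**Figure D4:**
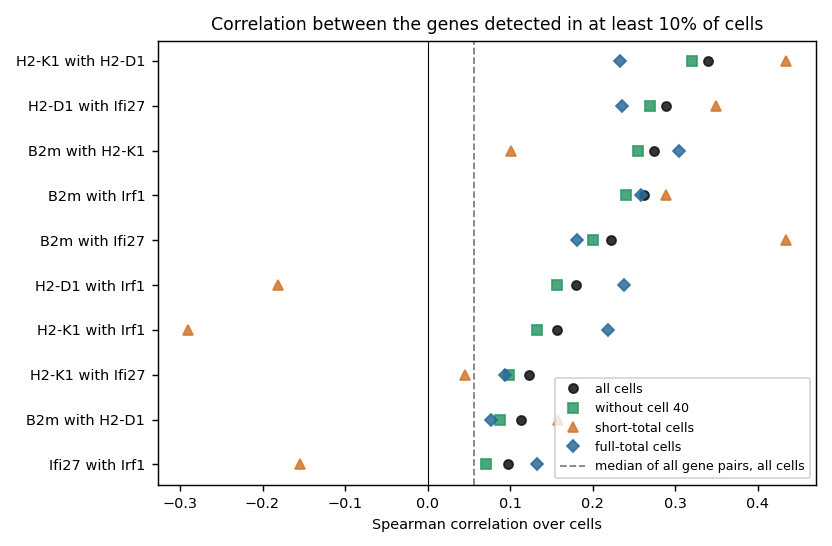
Spearman correlation over cells (x axis) for the 10 pairs of the 5 genes detected in at least 10% of cells (y axis), over all cells, without cell 40, over the 21 short-total and over the 87 full-total cells; the dashed line is the median of all gene pairs, 0.0560. All 10 black points lie right of that line, between 0.0970 and 0.340, and 3 pairs with Irf1 lie left of 0 in the short-total cells.

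The genes most like each of the 5, among 5341 genes detected in at least 25% of cells, differed from one to the next. For B2m the highest Spearman correlations were with Ly6e at 0.417, Vsig2 at 0.405, Cldn3 at 0.404, Cyba at 0.396 and Rpl14 at 0.394. For H2-K1 they were Cxadr at 0.451, Dap at 0.450, Tmem238 at 0.441, Gjb2 at 0.414 and Cabp2 at 0.406, and H2-D1 stood at rank 53. For H2-D1 they were Cope at 0.502, Tspan13 at 0.480, Ssr2 at 0.478, Ltbr at 0.459 and Fth1 at 0.458, and H2-K1 stood at rank 120. For Ifi27 they included Cox7c at 0.455, Ndufs6 at 0.452, Ly6e at 0.442 and Swi5 at 0.437. For Irf1 they were Gabarapl1 at 0.566, Eif4a2 at 0.519, Abhd4 at 0.497, Ifrd1 at 0.491 and Mt2 at 0.485. None of these 5 genes was among the 5 genes most like another of them, and the other 4, detected in fewer cells, were not ranked.

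Ly6e, a membrane-anchored surface protein known to be interferon-inducible, stood first for the mean z-score of the 5 genes, at 0.648. It was detected in every cell at 172 ± 69.8 TPM, from 50.4 TPM in cell 96 to 447 TPM in cell 4, and was itself called variable at 2.37 times the trend. With the number of genes detected taken out of both, the correlation of that score with Ly6e was 0.466. It was 0.269 over the short-total cells and 0.626 over the full-total cells. Tspan13 at 0.561, Cldn3 at 0.524, Dap at 0.522, Pdia2 at 0.521, Klk1 at 0.518, Psmd8 and Ssr2 at 0.501, Dmd at 0.491 and Tmem97 at 0.486 followed. At the other end were Gm5409 at -0.332, Clps at -0.282, Slc7a3 at -0.274, Lrrc51 at -0.229 and Cpa1 at -0.223. Clps, the colipase that lipase needs, and Cpa1, a carboxypeptidase, are secreted digestive proteins of this cell type. Klk1, near the other end at 0.518, was counted in the same list of digestive enzymes. Over the 38 genes of that list that were tested, the median correlation ran from 0.00408 with Irf1 to 0.0518 with Ifi27. All genes tested had a median of 0.0233 with that list. The low values of Clps and Cpa1 therefore did not extend to the digestive enzymes as a set.

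Against the 14 other interferon-stimulated genes detected in at least 10% of cells, the median Spearman correlation was 0.218 for Ifi27, 0.194 for Irf1, 0.189 for H2-D1, 0.176 for B2m and 0.119 for H2-K1. All genes tested had a median of 0.0612 with the same list. Ifitm3 was the gene of the list highest with B2m (0.269), H2-D1 (0.355) and Ifi27 (0.311), and Bst2 with H2-K1 (0.229). Samhd1, a nucleotide hydrolase that restricts retroviruses, was highest with Irf1 (0.327). The medians depended on the cells and the scaling. Over cells 49 to 91 alone, the median with interferon-stimulated genes was 0.00486 for H2-K1, 0.111 for Ifi27 and 0.264 for Irf1. Over cells 1 to 48 alone it was 0.169, 0.240 and 0.0690, in that order. With median-of-ratios scaling it was 0.0345 for H2-K1, 0.104 for H2-D1, 0.126 for Ifi27, 0.127 for B2m and 0.155 for Irf1.

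Irf1 followed the immediate-early genes, which cells switch on within minutes of a stimulus and of tissue dissociation. Its median correlation with 19 of them was 0.341, with all 19 positive and Fosb highest at 0.432, against a median of 0.0408 for all genes tested. The same list stood at 0.169 with H2-D1, 0.0884 with H2-K1, 0.0653 with Ifi27 and 0.00634 with B2m. These pooled values cover opposite signs. For H2-K1 the median was -0.365 over the short-total cells and 0.256 over the full-total cells, for H2-D1 -0.0701 and 0.277, for Ifi27 -0.0374 and 0.154, and for B2m -0.153 and 0.0673, while for Irf1 it was 0.103 and 0.405. The correlation of Irf1 with the mean z-score of the list was 0.445, and 0.385 with the number of genes detected taken out. It was 0.134 over the short-total cells and 0.539 over the full-total cells. Fos, a component of the AP-1 factor, stood at 264 TPM in cell 40, 265 TPM in cell 61, 215 TPM in cell 38, 38.99 TPM in cell 51 and 157 TPM in cell 54, the 5 cells highest in Irf1, against a median of 18.1 TPM over all cells. In the cells next in Irf1, Fos stood at 81.1 TPM in cell 67, 9.06 TPM in cell 36, below that median, and 255 TPM in cell 62. Irf1 was also positive with all 12 genes of interferon receptors and signalling, with a median of 0.228 against 0.0596 for all genes, and Stat3 was highest at 0.401. With Stat3 it was -0.0478 over the short-total cells and 0.476 over the full-total cells. The part of tissue dissociation in these values was not tested.

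**Figure D5:**
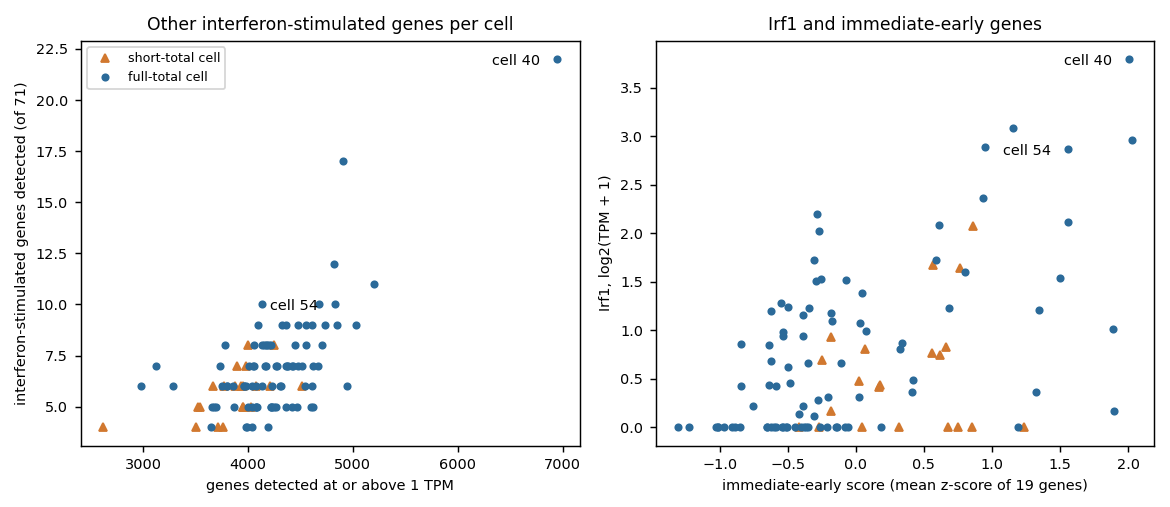
Left, the number of 71 other interferon-stimulated genes detected in a cell against the number of all genes detected in it; right, Irf1 on the log2(TPM + 1) scale against the mean z-score of 19 immediate-early genes; triangles are short-total and circles full-total cells. Cell 40 stands apart on the left with 22 interferon-stimulated genes among 6946 genes, and on the right Irf1 is highest in cell 40, at 12.9 TPM.

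One cell held many of the highest values. Cell 40 had the highest level of B2m (51.95 TPM, against at most 25.8 TPM in the other cells), H2-K1 (35.9 against 25.9), H2-D1 (28.4 against 19.1), Irf1 (12.9 against 7.50), Psmb8 (2.02 against 0.84) and Ifit1 (0.45 against 0.15), and the second highest of Ifi27 (60.5 TPM). Of the 5 genes detected in at least 10% of cells, 4 were highest there, against 10.4% of all such genes. Of the 71 other interferon-stimulated genes, 22 were detected in cell 40, against a median of 6 and a maximum of 17 (cell 69) in the other cells. Their summed level was 163 TPM in cell 40 and 23.6 to 116 TPM in the other cells. Of the 39 detected in some cell, 13 were highest in cell 40, against 11.4% of all genes detected in some cell, and 8 were detected only there, against 2.62% of all genes detected in some cell. These 8 included Gbp2 at 2.39 TPM, Sp100 at 4.36 TPM and Iigp1 at 1.54 TPM. They are among the 13 by definition, since cell 40 alone brought them to the detection level. Among all 12992 genes detected in some cell, 1486 were highest in cell 40, including the 341 detected only there. Cell 40 was singled out after its values were seen, so these counts describe it and carry no test.

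Cell 40 also carried markers of another cell type and the most genes detected. It had 10 of 11 endothelial markers at or above 1 TPM, with a summed level of 124 TPM, whereas no other cell had more than 1 of them, or a sum above 4.09 TPM. Ly6c1 was highest of them with 38.8 TPM, followed by Plvap with 25.4 TPM, and Pecam1, the adhesion molecule CD31, had 11.5 TPM. Of the other markers, Rgs5 stood at 7.50 TPM, Sparc at 13 TPM and the macrophage gene Csf1r at 1.68 TPM, with 2 of 11 stellate or fibroblast and 1 of 12 macrophage markers detected. Its acinar markers summed to 316006 TPM, within the range of the other cells. The part of these other transcripts in the values of cell 40 was not tested. Without cell 40, B2m stood at most at 25.8 TPM, Psmb8 was detected in 0 cells, and the median correlation over the 10 pairs was 0.179.

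Cell 54, chosen after its values were seen, had none of the endothelial markers and the second highest B2m, 25.8 TPM. None of the 5 genes was highest in it, against 2.26% of all genes tested. It held the highest value of 4 of the 39 interferon-stimulated genes detected in some cell, among them Ifi35 (3.84 TPM), Ifih1 (1.41 TPM) and Lgals9 (15.5 TPM), against 1.92% of all genes detected in some cell. It was also highest for Tapbp (6.66 TPM), H2-T23 (6.31 TPM), Jak2 (1.61 TPM) and Socs3 (20.5 TPM), the feedback inhibitor of cytokine signalling, and for Psmb6 (49.7 TPM). It detected 10 interferon-stimulated genes and 4830 genes in all, and Psmb8, Psmb9 and Ifit1 were listed at 0 in it.

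On the deposited scale, mean log2(TPM + 1) of each of the 5 genes was lower in the short-total cells. Median levels in short-total and full-total cells were 4.88 and 6.60 TPM for B2m, 8.30 and 11.4 TPM for H2-K1, 6.23 and 9.04 TPM for H2-D1, 21.1 and 25.4 TPM for Ifi27, and 0.35 and 0.35 TPM for Irf1. Irf1 was detected in 3 of 21 short-total and 29 of 87 full-total cells. The differences of mean log2(TPM + 1), short-total minus full-total, were -0.40 for B2m, -0.47 for H2-K1, -0.41 for H2-D1, -0.25 for Ifi27 and -0.21 for Irf1, against a median of -0.15 over all genes tested. None reached a difference of 1, which 0.346% of genes reached downwards and 0.152% upwards. With values scaled without the digestive enzymes, the median over all genes was 0.02, H2-D1 stood at -0.091 and Ifi27 changed sign to 0.10. The ranges of all 5 genes overlapped between the sets. The sets cannot be told apart from mice, days or plates, since none was named.

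Within the full-total cells, the 40 cells numbered 49 to 91 were set against the 47 numbered 1 to 48. The differences of mean log2(TPM + 1) were -0.29 for B2m, 0.18 for H2-K1, -0.04 for Ifi27, 0.02 for Irf1 and under 0.01 in size for H2-D1, and the median over all genes was -0.04. Median levels were 6.04 TPM of B2m in the later and 7.42 TPM in the earlier cells, and 12.9 TPM of H2-K1 in the later and 10.4 TPM in the earlier cells. None of the 5 reached a difference of 1, which 0.0692% of genes reached downwards and 0.125% upwards. The differences of H2-K1 and B2m had opposite signs, and each was smaller than the SD of that gene within either set.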

How the data were processed

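The deposited table held TPM for 45195 Ensembl genes in each cell, and its unit was read from the cell sums. STAR 2.4.2a, RSEM 1.2.21, edgeR and the build mm10 are named per the submitters' processing notes, without the step each served. Genes were matched to symbols and positions through GENCODE on GRCm38, and 44548 had a symbol. No cell was left out and no doublet caller was run. Spread was the squared coefficient of variation over a lowess trend (span 0.3, log10 scales). Correlations were Spearman's over cells on log2(TPM + 1). On simulated data, 99% of 200 genes with 4 times the squared coefficient of variation were called variable, and 0.34% of the unchanged genes. The unchanged genes were placed on the trend without scatter around it. The simulation therefore gives no error rate for the real calls, which made up 12.0% of genes tested. Mapping of reads shared by near-identical transcripts could not be redone.

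The genes and lists were chosen with earlier results of these data known, as were the divisions of the cells. Named were the 9 genes, of each other list up to 3 genes of highest mean and 3 of highest spread over the trend, all interferon receptors, the 5 genes most like each gene, the 10 highest and 5 lowest for the score, and markers detected in a cell with a highest value. Other genes, and cell 54, were chosen once values had been seen. Some genes that the rule names are not reported here. Alternatives were other scalings, detection levels, pseudocounts, filters and sets of cells. Python 3.11.15, numpy 2.4.6, pandas 2.3.3, scipy 1.17.1, statsmodels 0.14.6 and matplotlib 3.10.9 were used.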

Additional observations from a re-analysis of the deposited data

How the results depend on the processing

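Detection depended on the level set for it: with detection above 0, at or above 5 or at or above 10 TPM, 76, 21 or 10 of the 149 pathway genes were detected in at least 10% of cells, instead of 48. At or above 5 and at or above 10 TPM, 1 and 0 of the 9 genes were detected in every cell, instead of 3. The median short-total minus full-total difference, -0.40, stood at -0.091 without the digestive enzymes, -0.15 with median-of-ratios scaling, -0.19 with a pseudocount of 10 and -0.28 without cells 40 and 96, while the median of all genes, -0.15 on the deposited scale, stood at 0.02, -0.01, -0.03 and -0.14. The median correlation between the genes, 0.201, stood at 0.103 with median-of-ratios scaling and at 0.0954 with the number of genes detected taken out. Over short-total cells, 1 gene was called variable instead of 2, and H2-K1 stood at -0.030 with the interferon-stimulated genes detected in at least 10% of those cells, instead of 0.119; with the same 14 genes kept it stood at 0.0666. The short-total set holds only 21 cells, and the causes of the other shifts were not tested. Cells 40 and 54 were left out as alternatives chosen after seeing the data. The other values, 80 that answer a comparison and 416 of single genes, stayed within a limit set for their kind. Another 33 of single genes, most of them shares of cells detected, went beyond it. The limit was a set fold for counts, an unchanged call for variability, the exact interval for shares and a fixed difference for list correlations. For levels, differences and the median over pairs it was an SD. B2m at 2.04 instead of 3.15 times the trend thus counted as unmoved. No paired comparison between groups was possible because the cells form 1 group. Read depth is unknown, so undetected genes may lie below what the reads could show.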
